A study of Mus musculus with 40 samples.

Results

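Thrsp and 9 genes of fatty acid synthesis (Fasn, Acaca, Acacb, Acly, Scd1, Scd2, Me1, Elovl6 and Srebf1) were followed through rib repair in immature and mature mice. The genes were chosen by name, and Thrsp was selected on its difference between the ages at 2dpr in these same libraries, so that difference is given as a description with no test. All 10 were found among the 21204 genes of the authors' filtered table, and none was lost to its filter on low counts. The study resected a stretch of rib in wild type female mice of the strain its methods write as C75BL/6 and collected rib tissue from uninjured animals (baseline) and on days 0, 2, 5 and 14 after the surgery (days post-resection, dpr). Immature mice were 7 weeks old and mature mice more than 10 months old. The labels describe the tissue as a composite of bone, marrow and intercostal muscle, with callus at the later stages, and no group received a treatment beyond the resection. Bulk RNAseq gave 4 libraries in each group, except mature mice at 5dpr, where 3 of the 4 samples have values. Total counts ran from 6075355 reads (immature 5dpr, replicate 2) through a median of 9092201 to 21546977 (immature 5dpr, replicate 4).

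A few libraries stood apart. Mature 2dpr replicate 3 had 14380 genes with a count, where the other 38 libraries had 20768 to 25778. Hepatocyte markers (7 genes, of which Alb was the most abundant) summed to 6305, 4.07, 4.55 and 6.96 CPM in immature 0dpr replicates 1 to 4 and to 214, 333, 19.2 and 16.9 CPM in mature 0dpr replicates 1 to 4, and did not pass 42.3 CPM in any library of the other stages. Thus immature 0dpr replicate 1 and mature 0dpr replicates 1 and 2 carried transcripts that the other rib libraries held at low levels. Brown adipocyte markers were uneven too: Ucp1 stood at 248, 0, 128 and 33.7 CPM in the immature 0dpr libraries and at 851, 30.3, 105 and 6.95 CPM in the mature ones. The counts among the 10 genes were repeated without mature 2dpr replicate 3 and the libraries with hepatocyte markers, and the counts of marker genes, of other lists and of all genes were not.

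Fatty acids are built in the cytosol from citrate that leaves the mitochondria. ATP citrate lyase (Acly) releases acetyl-CoA, the acetyl-CoA carboxylases (Acaca and Acacb) make malonyl-CoA, fatty acid synthase (Fasn) joins the units with NADPH that malic enzyme (Me1) helps to supply, and Elovl6, Scd1 and Scd2 lengthen and desaturate the product. Thrsp (Spot 14) is a small nuclear and cytosolic protein of lipid-making tissues such as adipose tissue, liver and lactating mammary gland, and its gene is a classic target of thyroid hormone, while Srebf1 encodes a transcription factor that switches on most genes of the pathway.

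The genes spanned a wide range of levels. Per kilobase of exon, mean TMM-scaled CPM over the 39 libraries was 366 for Scd1, 98.9 for Fasn, 55.4 for Acly, 36.2 for Thrsp, 33.2 for Scd2, 20.4 for Me1, 14.9 for Acacb, 14.0 for Acaca, 13.8 for Srebf1 and 8.94 for Elovl6. Thrsp (ENSMUSG00000035686, GRCm38 chr7:97412938-97417730, minus strand) varied most, with a highest library 129 times its lowest, followed by Scd1 at 80.1 times and Fasn (ENSMUSG00000025153, chr11:120805846-120824547, minus strand) at 77.2 times. The lowest Thrsp value, 2.66 CPM, belonged to mature 2dpr replicate 3, in the group whose contrast chose Thrsp. Outside that group the lowest Thrsp value was 8.92 CPM, against a highest of 344 CPM, so nothing is read from its first place. Scd2 varied least, at 3.15 times, and Acly at 5.03 times. The smallest count behind any value was 24 reads, for Thrsp in mature 2dpr replicate 3. Stretches of 50 bases found also in transcripts of other genes made up 30.4% of Acaca (Gm5182 shared the most) and 28.3% of Me1 (Gm7049), 4.56% of Scd1 (Scd3 and Scd2) and 3.97% of Scd2 (Scd1 and Scd3), 3.98% of Elovl6, 1.33% of Srebf1 and 0.421% of Thrsp, and none of Fasn, Acacb or Acly. How reads in shared stretches were assigned is not stated, so part of the counts of Acaca and Me1 could come from such copies.

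The sequence before the start of transcription is shown for Thrsp, Fasn and Acly (RefSeq, GRCm38.p6, read 5′ to 3′ on the gene's strand). Over the 39 libraries, with those at 2dpr that chose Thrsp included, Pearson r with Thrsp was 0.95 for Fasn and 0.57 for Acly. Fasn is given from chr11:120824548-120824797 and Acly from chr11:100528001-100528250, both on the minus strand and 250 bases long. For Thrsp the RefSeq start lies inside the first exon that GENCODE annotates, so the 70 bases beyond that exon are given, chr7:97417731-97417800, minus strand. Capitals mark any match, on either strand, to the 5 motifs searched.
Thrsp: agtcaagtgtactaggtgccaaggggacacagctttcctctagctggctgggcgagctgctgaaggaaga
Fasn: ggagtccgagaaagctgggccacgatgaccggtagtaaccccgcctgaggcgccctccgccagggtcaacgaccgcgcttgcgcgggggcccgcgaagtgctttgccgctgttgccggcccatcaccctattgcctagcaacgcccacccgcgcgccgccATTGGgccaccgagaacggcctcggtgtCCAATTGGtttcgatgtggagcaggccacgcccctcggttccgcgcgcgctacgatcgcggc
Acly: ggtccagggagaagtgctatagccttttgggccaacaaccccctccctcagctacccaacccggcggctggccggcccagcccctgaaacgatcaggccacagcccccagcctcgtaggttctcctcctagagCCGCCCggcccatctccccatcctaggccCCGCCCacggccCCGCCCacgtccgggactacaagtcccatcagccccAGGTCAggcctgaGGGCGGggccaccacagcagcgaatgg
The 250 bases before the RefSeq start were present for 8 of the 10 genes, with 11 entries in all (Me1 had 2 and Srebf1 had 3), while Scd1 and Scd2 had no entry. The entries of Acaca and Acacb, entry 2 of Me1 and entries 2 and 3 of Srebf1 lie wholly inside the gene as GENCODE annotates it. They start from inner RefSeq starts and were counted with the rest. CCAAT, the letters bound by NF-Y, was held by 6 of the 11 entries (of Thrsp, Fasn, Acacb, Me1 and Srebf1) and by 33.8% of 32851 promoters of the same length. In Thrsp its matches began 79 and 52 bases before the RefSeq start, which puts them inside the exon annotated by GENCODE and outside the stretch printed here, and in Fasn they began 90, 62 and 59 bases before the start, the last 2 overlapping neighbours in CCAATTGG. GGGCGG, the GC box, was held by 4 entries (of Acly, Me1 and Srebf1) and by 32.7% of promoters. AGGTCA, a motif of nuclear receptors such as the thyroid hormone receptor, was held by 2 entries (Acly and Elovl6) and by 14.0% of promoters. CACGTG, the E-box, and TCACNCCAC, the sterol regulatory element, were found in 0 of the 11 entries and in 6.02% and 1.05% of promoters.

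At 2dpr Thrsp stood apart between the ages. Its level was 36.0, 27.2, 19.0 and 57.7 CPM in the 4 immature libraries and 4.13, 4.94, 2.66 and 4.12 CPM in the 4 mature libraries. Every immature library lay above every mature library, and the means, 35.0 ± 16.7 CPM and 3.96 ± 0.946 CPM (SD, n = 4 each), differed by 3.14 on the log2 scale, or 8.83 times. Without mature 2dpr replicate 3 the ratio was 7.96. Fasn showed the next largest ratio, with 453, 485, 401 and 939.7 CPM in immature and 120.4, 195, 97.7 and 99.4 CPM in mature libraries. The ages did not overlap for Fasn either, and the immature mean was 4.45 times the mature mean, or 4.12 times without that replicate. In all, 5 of the 10 genes (Thrsp, Fasn, Acaca, Scd2 and Srebf1) had every immature library above every mature one and 0 had the opposite, where 3.20% of all genes did not overlap and were higher in immature mice. The contrast chose Thrsp, so nothing is read from this count. For Acaca the immature libraries had 124, 136, 129 and 202 CPM and the mature ones 95.7, 97.7, 94.7 and 74.6 CPM, a ratio of means of 1.63. Srebf1 stood at 96.1, 79.4, 66.7 and 81.2 CPM in immature and 50.7, 63.4, 16.7 and 66.2 CPM in mature mice, where the lowest value belonged to replicate 3 and the ratio of 1.64 became 1.35 without it. The ages overlapped for Scd1, whose levels of 275, 281, 219.7 and 612 CPM and 289, 383, 285 and 242 CPM had means in a ratio of 1.16, and also for Acacb, Acly, Me1 and Elovl6. Me1 had 34.3, 33.2, 40.5 and 54.0 CPM in immature and 31.4, 31.0, 40.0 and 26.0 CPM in mature mice. Its overlap came from mature replicate 3, and without that library 6 of the 10 genes did not overlap. The share of all genes was not counted without that library, so nothing is read from the 6 either.

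Adipocyte markers were read beside these values. The 12 white adipocyte markers summed to 2632, 2257, 2402 and 3085 CPM in the immature 2dpr libraries and to 2487, 3092, 2268 and 2070.2 CPM in the mature ones, with no marker at 0 in any of the 8 libraries and with Cd36 the most abundant gene in 7 of them. Cd36 averaged 669.9 CPM in immature and 898 CPM in mature mice. The sums overlapped between the ages, and so did Adipoq, the defining hormone of fat cells, at 110.4, 99.1, 77.2 and 130.2 CPM and 100.2, 103, 90.5 and 84.0 CPM. Cfd had 704, 518, 355 and 634 CPM in immature and 329.7, 374, 205 and 301.98 CPM in mature libraries and Plin1 40.7, 43.9, 37.5 and 61.4 CPM and 32.7, 41.0, 7.77 and 37.98 CPM, so that 3 of 4 immature libraries for Cfd and 2 of 4 for Plin1 lay above all mature libraries. Set against Adipoq, Thrsp was 32.6, 27.5, 24.6 and 44.3 CPM per 100 CPM of Adipoq in immature libraries and 4.12, 4.81, 2.94 and 4.90 in mature ones. The mature 2dpr libraries were the lowest 4 of all 39 on this ratio, a measure chosen after the values were seen. It holds the 2dpr values that chose Thrsp, so nothing is read from that place. The group mean was 4.20 ± 0.903 (SD) against 32.3 ± 8.70 in immature mice and 18.0 to 76.6 in the other groups. Fasn on the same measure was 409.9, 489.9, 519 and 722 in immature and 120.2, 189.6, 108 and 118 in mature 2dpr libraries, which did not overlap, but mature 5dpr replicate 1 lay lower, at 94.9. Scd1 overlapped between the ages, with 322 ± 100.2 and 316 ± 40.0 (SD). The 7 brown adipocyte markers summed to 83.0, 62.1, 206 and 301 CPM in immature and 38.4, 40.9, 27.0 and 72.9 CPM in mature 2dpr libraries, with Cox8b, a gene also expressed in muscle, the most abundant in 6 of the 8. Ucp1, which defines brown fat cells, had 1.26, 4.95, 76.0 and 136 CPM and 0.744, 0.693, 0 and 0.694 CPM. Cidea had 1.99, 3.94, 16.9 and 40.4 CPM and 0, 0.520, 0 and 0.833 CPM. Both genes lay higher in every immature library than in any mature library and were highest in immature replicates 3 and 4. The brown marker sums overlapped, and so did Cox8b, with 40.0 CPM in immature replicate 2 and 60.2 CPM in mature replicate 4. Such a split was not counted for the rest of the list. Of all genes 3.20% had it, so nothing is read from Ucp1 and Cidea. In mature replicate 3 Ucp1, Cidea, Elovl3 and Otop1 were at 0. Osteoblast markers (9 genes, Col1a1 the most abundant) summed to 6056, 4830, 5350 and 8377 CPM in immature 2dpr libraries. In mature ones they summed to 2393, 3200, 1647 and 1706.5 CPM, with no overlap. Col1a1 alone made up 95.5% of the mean sum in immature and 92.1% in mature mice. The sums thus mostly give the level of Col1a1, and the other osteoblast markers were not summed apart from it. The sums of skeletal muscle, macrophage, neutrophil, erythroid and chondrocyte markers overlapped between the ages at 2dpr. The part of white and brown adipocytes and of osteoblasts in the difference was not tested. In bulk samples, fewer cells of a type and less RNA per cell cannot be told apart.

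**Figure D1:**
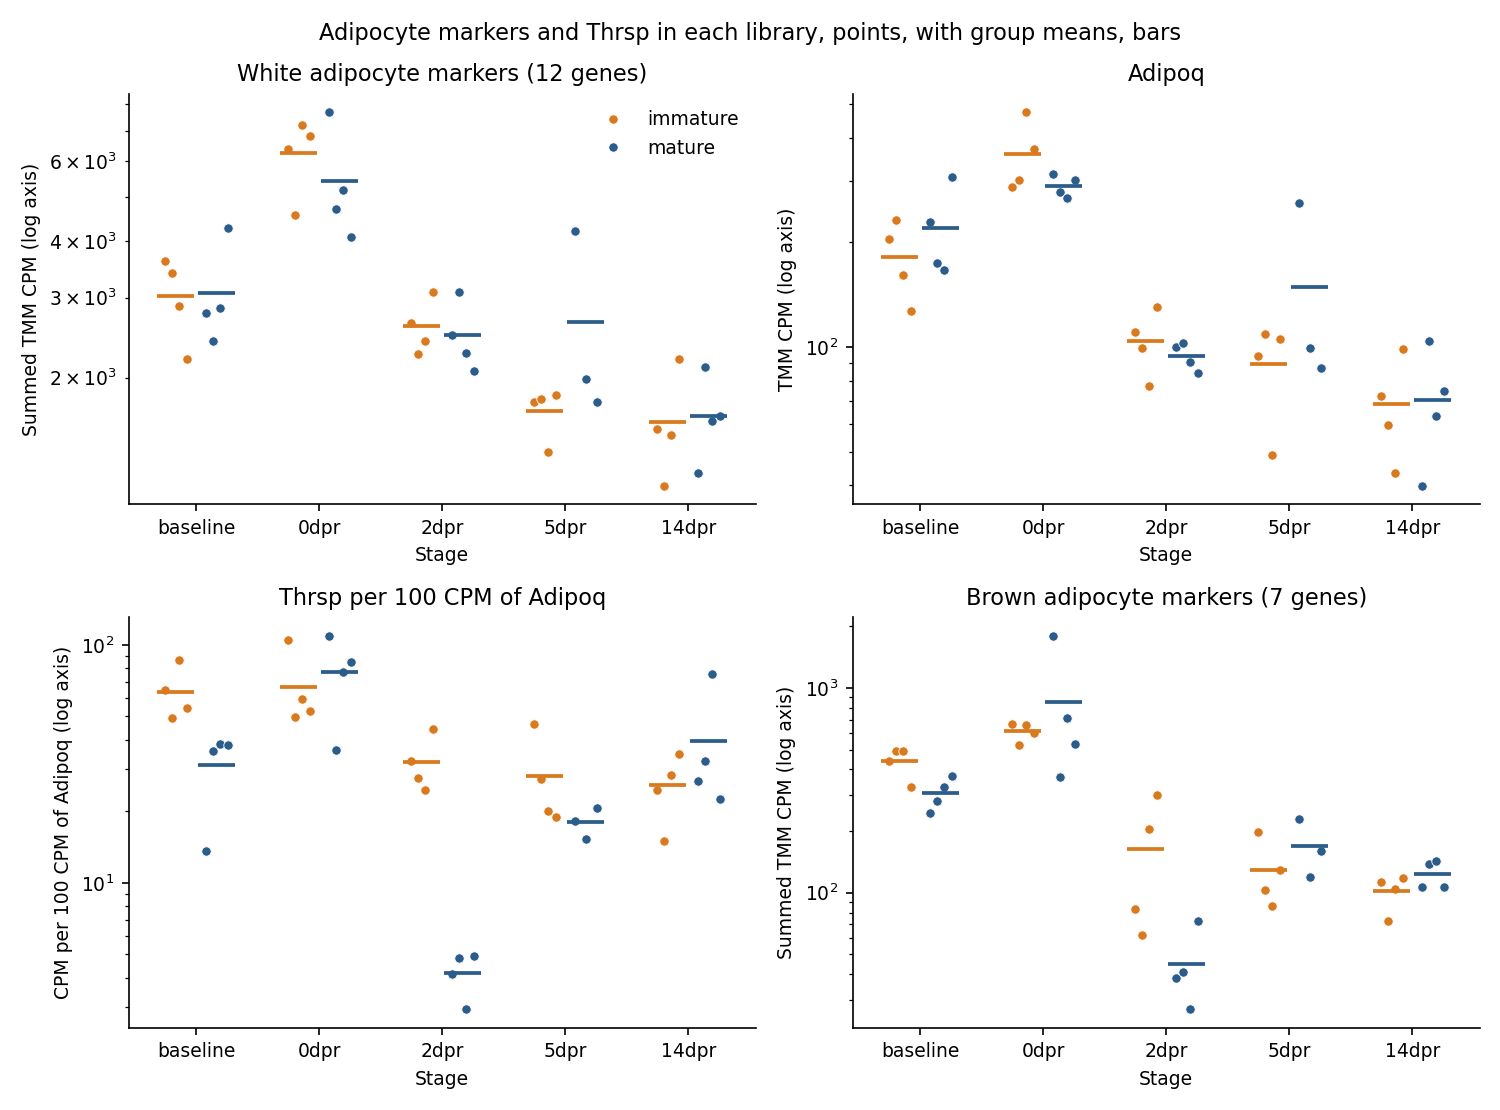
Summed white adipocyte markers, Adipoq, Thrsp per 100 CPM of Adipoq, and summed brown adipocyte markers in each library (points) by stage on log axes, with group means as bars, immature in orange and mature in blue. At 2dpr the ages overlapped for Adipoq, and for Thrsp per 100 CPM of Adipoq the 4 mature libraries (2.94 to 4.90) lay below all 35 others. The ratio holds the 2dpr values that chose Thrsp, so nothing is read from that place.

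Across the stages Thrsp had its highest means at 0dpr. Baseline levels were 132, 115, 139 and 69.0 CPM in immature and 31.1, 62.0, 63.7 and 117 CPM in mature mice, and 0dpr levels were 304, 149.8, 281 and 195 CPM and 344, 101, 206 and 254 CPM. At 5dpr the libraries had 43.6, 29.8, 9.79 and 19.9 CPM in immature and 47.3, 15.2 and 17.9 CPM in mature mice, and at 14dpr 17.8, 8.92, 12.3 and 34.4 CPM and 10.7, 33.9, 47.8 and 16.7 CPM. Replicates of the later stages differed by several times within each age, and the ages overlapped at every stage but 2dpr. Ordered by mean, the groups ran from immature 0dpr (233 ± 72.6 CPM) and mature 0dpr (226 ± 101 CPM) through immature baseline (114 ± 31.5 CPM), mature baseline (68.5 ± 35.8 CPM), immature 2dpr, mature 14dpr (27.3 ± 16.8 CPM), mature 5dpr (26.8 ± 17.8 CPM, n = 3), immature 5dpr (25.8 ± 14.4 CPM) and immature 14dpr (18.3 ± 11.3 CPM) to mature 2dpr (SD, n = 4 unless given). Neighbours in this order overlapped in every case except the last step, where all immature 14dpr libraries lay above all mature 2dpr libraries. Thrsp in mature mice thus passed from 226 CPM at 0dpr to 3.96 CPM at 2dpr, a ratio of means of 57.1, and back to 26.8 CPM at 5dpr. In immature mice the ratio from 0dpr to 2dpr was 6.65, and the ranges of 2dpr and 5dpr overlapped. Steps that use the 2dpr libraries were not tested for Thrsp.

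**Figure D2:**
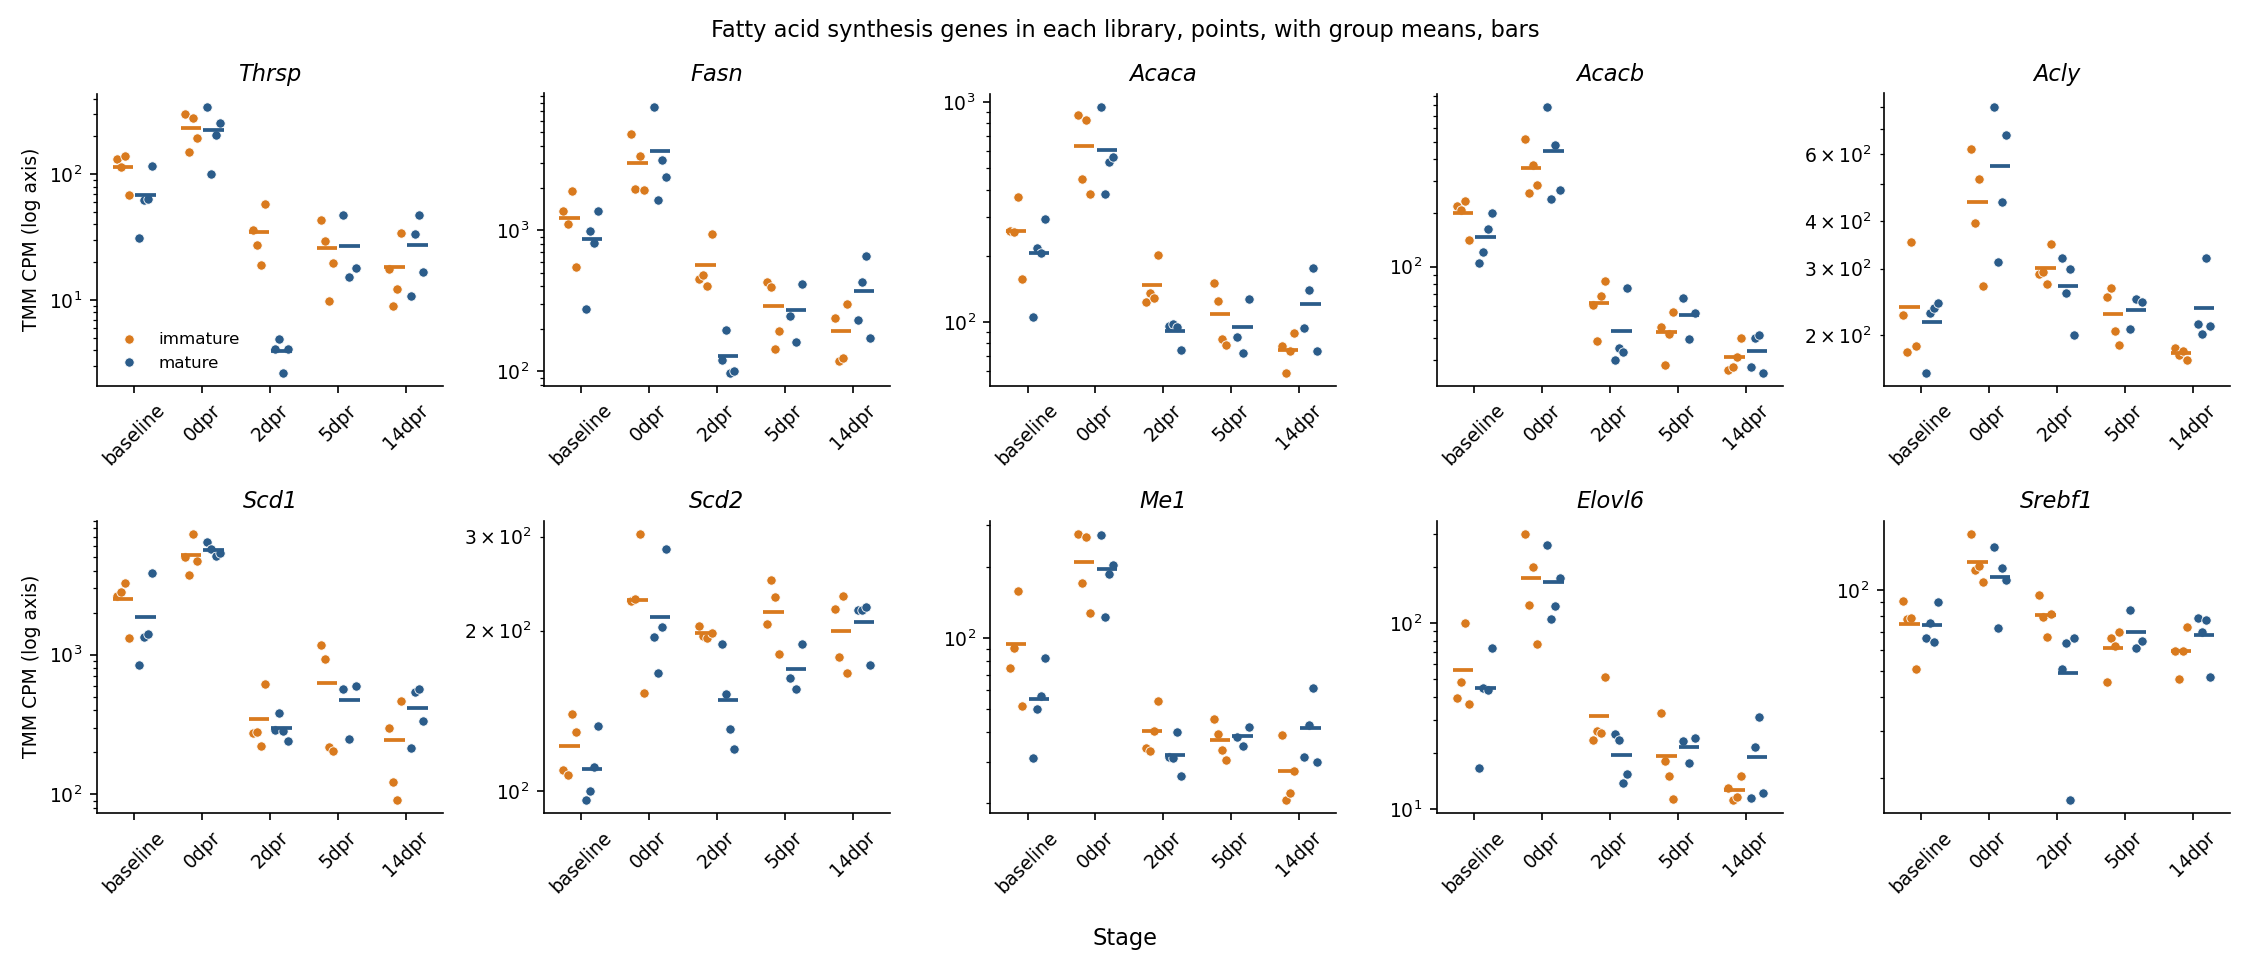
TMM-scaled CPM of the 10 genes in each of the 39 libraries (points) by stage, on log axes, with group means as bars, immature in orange and mature in blue. Thrsp in mature mice lay at 2.66 to 4.94 CPM at 2dpr, below every other library, in the contrast that chose it. Scd2 stayed between 96.5 and 304 CPM throughout.

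The genes were first compared between baseline and 0dpr, which asks what changed at once after surgery. Fasn had 1362, 1109, 1907 and 545 CPM at baseline and 4800.2, 1964, 3355 and 1948 CPM at 0dpr in immature mice, and 277, 986, 813 and 1369 CPM and 7542, 1646, 3176 and 2388 CPM in mature mice. All 0dpr libraries lay above all baseline libraries of the same age. By edgeR's quasi-likelihood test with Benjamini-Hochberg adjusted p under 0.05, 9 of the 10 genes rose in mature mice, all but Srebf1, where 22.5% of all genes changed. Fasn in mature mice changed by 2.10 ± 0.51 on the log2 scale (SE; adjusted p = 0.00276, edgeR), Me1 by 1.83 ± 0.30 (adjusted p = 7.61e-05) and Thrsp by 1.72 ± 0.47 (adjusted p = 0.00690), with Thrsp overlapping through mature 0dpr replicate 2. The change of Fasn in mature mice ran from 1.51 to 2.36 over the 16 alternatives and passed in all. Mature 0dpr replicate 1 was its highest library. In immature mice 6 of 10 rose (Acaca, Acly, Scd2, Me1, Elovl6 and Srebf1), where 10.6% of all genes changed. Elovl6 in immature mice changed by 1.65 ± 0.40 (adjusted p = 0.00937, edgeR) and Scd2 by 0.91 ± 0.17 (adjusted p = 0.00127), whereas Thrsp, at 1.03 (adjusted p = 0.141), Fasn, Acacb and Scd1 did not pass although their libraries did not overlap. The interaction of age with this step was past the threshold for 0 of 10 genes by edgeR and by DESeq2, with 0 at an unadjusted p under 0.05, and for 0.0141% of all genes. For Thrsp the interaction was -0.69 ± 0.64 on the log2 scale (adjusted p = 0.828, edgeR).

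The immature count at 0dpr was not stable. It was 3 without immature baseline replicate 6, 2 without immature 0dpr replicate 1, 1 with a replicate block and 0 when edgeR was fitted on the compared libraries alone, where by edgeR all 10 genes were past an unadjusted p of 0.05 in the fit of all libraries and DESeq2 called 7. Acly was lost without immature baseline replicates 3 or 6 or 0dpr replicate 1, Me1 without baseline replicate 6 or 0dpr replicate 1, and Elovl6 without 0dpr replicate 1. Srebf1 was kept in 1 of the 8 fits that left a library out, the fit without immature 0dpr replicate 4, while Acaca and Scd2 were kept in all 8. In mature mice Scd1 was lost without baseline replicate 1, 2 or 3 (highest adjusted p = 0.0794, edgeR), and Srebf1 was gained without 0dpr replicate 2. Leaving out the 3 libraries with hepatocyte markers together with mature 2dpr replicate 3, a setting chosen after the data were seen, gave 6 in immature and 9 in mature mice, with Scd1 out and Srebf1 in for the mature count. By edgeR 7 of 7 hepatocyte markers passed as higher at 0dpr in immature mice, where replicate 1 alone lay above the baseline range of 1.36 to 9.47 CPM, and 5 of 7 in mature mice. White adipocyte markers summed to 3606, 3406, 2883 and 2202 CPM at baseline and 6376, 4559, 7206 and 6804 CPM at 0dpr in immature mice, and 2778, 2409, 2842 and 4263 CPM and 7689, 4714, 5177 and 4072 CPM in mature mice, with 8 of 12 markers up in immature mice, where 10.6% of all genes changed, and 3 of 12 in mature mice, where 22.5% changed. Cfd was the most abundant white adipocyte marker in 5 of the 8 baseline libraries, and none of the 12 was at 0. Brown adipocyte markers summed to 442, 494, 491 and 330.1 CPM at baseline and 666, 528, 661 and 606 CPM at 0dpr in immature mice, and to 245, 282, 328 and 373 CPM and 1802, 368, 715 and 535 CPM in mature mice, with 3 of 7 and 5 of 7 up. Cox8b, also expressed in muscle, made up 90.0% and 84.4% of the mean sum at baseline and 66.8% and 54.5% at 0dpr in immature and mature mice. By edgeR 1 of 15 skeletal muscle markers rose in immature and 15 of 15 in mature mice, with median log2 changes of 0.56 and 1.19. Neutrophil markers (9 genes, S100a9 the most abundant, none at 0) summed to 11345, 6895, 7828 and 7725 CPM at baseline and 1643, 6953, 901 and 2923 CPM at 0dpr in immature mice, and to 10554, 13427, 21452 and 8446 CPM and 1996, 8102, 2381 and 3872 CPM in mature mice, with 3 of 9 and 6 of 9 down. Of macrophage markers 9 of 10 fell in mature mice and of osteoblast markers 7 of 9, while in immature mice, with 1 of 10 and 1 of 9, the shares were near that of all genes. The interaction of age with this step passed for 0 markers of each of these lists by edgeR. The counts are therefore not read as a difference between the ages. The part of these cell types in the 0dpr rise was not tested.

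From 0dpr to 2dpr nearly the whole pathway fell. Scd1, the main desaturase of fat, had 4994, 3689, 7315 and 4716 CPM at 0dpr and 275, 281, 219.7 and 612 CPM at 2dpr in immature mice, and 6369, 5725, 5109 and 5373 CPM and 289, 383, 285 and 242 CPM in mature mice. No 2dpr library reached the lowest 0dpr library at either age. Of the 9 genes other than Thrsp, 8 fell in immature mice (all but Scd2), where 44.0% of all genes changed, and 9 fell in mature mice, where 47.6% changed. Those shares count both directions, and of the 21204 genes 4707 fell in immature and 5288 in mature mice. Shares near 45% mean that a change was common among all genes at this step. Scd1 changed by -3.90 ± 0.55 (SE, log2) in immature and -4.23 ± 0.56 in mature mice (adjusted p = 4.17e-07 and 8.91e-08, edgeR). For the enzymes that make and join malonyl-CoA, Fasn changed by -2.41 ± 0.51 in immature and -4.85 ± 0.57 in mature mice, Acaca by -2.10 ± 0.32 and -2.75 ± 0.33, and Acacb by -2.51 ± 0.33 and -3.34 ± 0.34 (highest adjusted p = 0.000215, edgeR). The elongase Elovl6 changed by -2.46 ± 0.42 and -3.08 ± 0.43, and malic enzyme Me1 by -2.38 ± 0.31 and -2.62 ± 0.31. Acly and Srebf1 moved less, by -0.58 ± 0.24 and -0.66 ± 0.25 in immature mice and by -1.05 ± 0.24 and -1.17 ± 0.26 in mature mice. Scd2 in mature mice changed by -0.52 ± 0.17 (adjusted p = 0.0108, edgeR) and overlapped between the stages, and in immature mice it stood at -0.21 (adjusted p = 0.332). The difference between the ages in this step was not tested, since it uses the contrast that chose Thrsp. The comparison shares its 0dpr libraries with the baseline comparison.

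The calls of the smallest falls were lost in several alternatives. In immature mice Acly kept its call in 2 of the 8 fits that left a library out and lost it without 0dpr replicates 1, 2 or 3 and without 2dpr replicates 1, 2 or 3, where its change was -0.36 without 0dpr replicate 1 and -0.53 to -0.60 in the other 5 fits. Srebf1 in immature mice lost its call without 0dpr replicate 1 or without 2dpr replicates 2, 3 or 4, with changes of -0.50 to -0.66, and Scd2 in mature mice without 0dpr replicate 4. With all libraries kept, Acly was also lost with no filter on low counts, with the replicate block and with edgeR fitted on the compared libraries alone (adjusted p = 0.0791, 0.0568 and 0.0946), Srebf1 with no filter (adjusted p = 0.0541) and mature Scd2 with the compared libraries alone (adjusted p = 0.0890). The immature count was 6 with no filter, and 7 without the libraries that stood apart, where Acly was lost (adjusted p = 0.201 without immature 0dpr replicate 1 and mature 2dpr replicate 3, and 0.111 with mature 0dpr replicates 1 and 2 left out too). Fasn, Acaca, Acacb, Scd1, Me1 and Elovl6 passed in all 16 alternatives at both ages. Tissue markers moved at the same step. Skeletal muscle markers (15 genes, with Acta1 the most abundant at 2dpr) summed to 64896, 102130.0, 135774 and 119876 CPM at 0dpr and 18770.5, 12644, 17513 and 14242 CPM at 2dpr in immature mice, and to 105457, 73441, 149213 and 104757 CPM and 8867, 9633, 10689 and 18386 CPM in mature mice, and 15 of 15 fell at each age. White adipocyte sums fell from those at 0dpr to those at 2dpr given before, with 11 of 12 markers down at each age and a median log2 change of -1.81 in immature and -1.77 in mature mice. The medians over the 9 genes were -2.38 and -2.75, and over all genes -0.04 and -0.05. Macrophage markers (10 genes, Lyz2 the most abundant) went from 1752, 1953, 1139 and 1616 CPM to 9309.5, 8431, 7574 and 8542 CPM in immature mice and from 1227, 2370.2, 1414 and 1801 CPM to 9057, 8874, 8032 and 7511 CPM in mature mice, with 10 of 10 up at each age. Of brown adipocyte markers, 4 of 7 fell in immature and 7 of 7 in mature mice, of hepatocyte markers 7 of 7 and 5 of 7, and of osteoblast markers 3 of 9 and 7 of 9. Erythroid markers (8 genes) fell in 7 of 8 and 8 of 8, with medians of -1.81 and -3.12, and summed to 3769, 15135, 13391 and 19167 CPM at 0dpr and 3193, 2110.4, 3373 and 4345 CPM at 2dpr in immature mice and to 13102, 25916, 14422 and 21854 CPM and 3222, 1150.0, 3882 and 1858 CPM in mature mice. The part of these cell types in the fall was not tested.

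**Figure D3:**
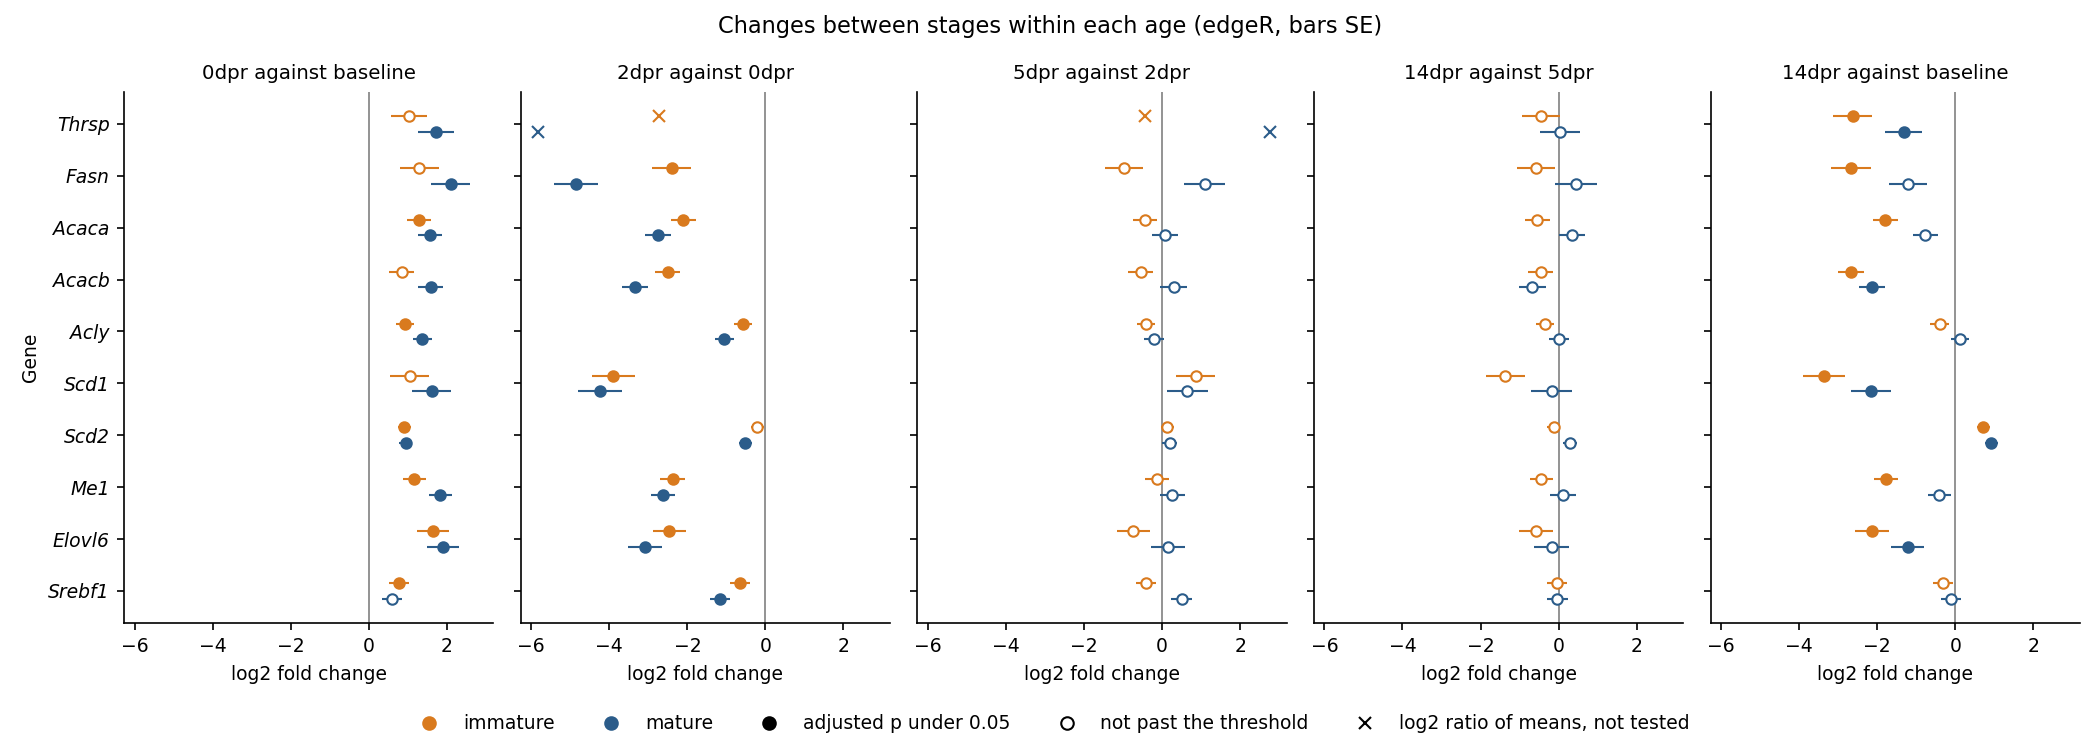
Log2 fold change between stages within immature (orange) and mature (blue) mice for the 10 genes, with the standard error as bars. Filled points passed an adjusted p of 0.05 by edgeR, open points did not, and crosses give the untested log2 ratio of means for Thrsp. From 0dpr to 2dpr the tested genes furthest to the left were Scd1 and mature Fasn, at -3.90 and -4.23 for Scd1 and -4.85 for Fasn.

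Between 2dpr and 5dpr edgeR called 0 of 9 genes in immature mice (0 at an unadjusted p under 0.05, 0 by DESeq2; 8.05% of all genes changed) and 0 of 9 in mature mice (1 unadjusted, 0 by DESeq2; 14.5% of all genes changed). The gene past the unadjusted threshold in mature mice was Fasn, which had 120.4, 195, 97.7 and 99.4 CPM at 2dpr and 247, 161 and 413 CPM at 5dpr, overlapping through 2dpr replicate 2 and 5dpr replicate 3, and changed by 1.09 ± 0.52 (adjusted p = 0.168, edgeR). Fasn in immature mice stood at -0.97 (adjusted p = 0.270). Acly in immature mice, whose 5dpr libraries all lay below those of 2dpr, passed when edgeR was fitted on the compared libraries alone (adjusted p = 0.0454), which made that count 1. From 5dpr to 14dpr edgeR called 0 of 10 genes in immature mice (1 unadjusted, 0 by DESeq2; 3.18% of all genes changed) and 0 of 10 in mature mice (0 unadjusted, 0 by DESeq2; 4.18% of all genes changed). Scd1 in immature mice was the gene past the unadjusted threshold. Its 5dpr libraries split into 1174, 926, 217 and 203 CPM, so that replicates 2 and 3 lay above and replicates 4 and 5 within the 14dpr range of 299, 122, 91.3 and 465 CPM. In mature mice 5 of 7 brown adipocyte markers rose from 2dpr to 5dpr, among them Cidea by 3.86 ± 1.24 on the log2 scale (SE; adjusted p = 0.0314, edgeR). Cidea had 0, 0.520, 0 and 0.833 CPM at 2dpr and 14.5, 2.13 and 2.08 CPM at 5dpr, and Ucp1 had 91.8, 3.10 and 1.51 CPM at 5dpr. The 5dpr levels of both thus came mostly from replicate 1, and Cidea was near 0 at 2dpr. Of skeletal muscle markers 9 of 15 rose, with a median of 1.03. The part of these cell types in the level of Fasn was not tested.

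The 14dpr callus was then compared with baseline. In immature mice 7 of 10 genes fell (Thrsp, Fasn, Acaca, Acacb, Scd1, Me1 and Elovl6) and 1, Scd2, rose, where 31.4% of all genes changed. In mature mice 4 fell (Thrsp, Acacb, Scd1 and Elovl6) and Scd2 rose, where 33.5% changed, while Fasn, Acaca, Acly, Me1 and Srebf1 did not pass. Thrsp changed by -2.63 ± 0.49 (adjusted p = 6.50e-05, edgeR) in immature mice, whose 14dpr libraries all lay below baseline. In mature mice Thrsp changed by -1.33 ± 0.47 (adjusted p = 0.0273) with overlap between the stages. Acacb, the carboxylase of the mitochondrial surface whose product restrains fatty acid oxidation, had 219, 207, 232 and 141 CPM at baseline and 26.6, 27.3, 31.2 and 39.8 CPM at 14dpr in immature mice, and 104, 120.3, 163 and 201 CPM and 27.6, 40.0, 41.3 and 25.5 CPM in mature mice. The stages did not overlap at either age, and Acacb changed by -2.68 ± 0.34 and -2.13 ± 0.33 (adjusted p = 9.69e-08 and 3.60e-06, edgeR). Scd2, a desaturase with a wider tissue range than Scd1, went the other way. It had 109.7, 107, 139.9 and 129 CPM and 219.8, 179, 232 and 167 CPM in immature mice and 96.5, 100, 111 and 133 CPM and 219, 219, 221 and 173 CPM in mature mice, with all 14dpr libraries above all baseline libraries, and rose by 0.71 ± 0.17 and 0.92 ± 0.17 (adjusted p = 0.00114 and 5.10e-05, edgeR). Scd1 over the same interval changed by -3.35 ± 0.54 and -2.16 ± 0.51. In mature mice the Scd1 change ran from -2.41 to -1.53 over the 16 alternatives and passed in all. Mature baseline replicate 4 had 3827 CPM of Scd1, where replicates 1 to 3 had 838, 1342 and 1407 CPM.

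The larger count in immature mice was not matched by a difference that passed its test. The interaction of age with the change from baseline to 14dpr was past the threshold for 0 of 10 genes by edgeR and 0 by DESeq2, with 3 at an unadjusted p under 0.05, and for 0.0472% of all genes. Me1 had the lowest p, with an interaction of -1.37 ± 0.42 (log2 ± SE, adjusted p = 0.323, edgeR), and Thrsp stood at -1.30 ± 0.66 (adjusted p = 0.647). All 8 calls in immature mice were kept in the 8 fits that left a library out. The mature count of 5 fell to 3, with Thrsp and Elovl6 lost, without baseline replicate 4, 14dpr replicate 1 or 14dpr replicate 4, and reached 7, with Fasn and Acaca added, without baseline replicate 1 or 14dpr replicate 3, by DESeq2 and with RLE size factors. It was also 7, with the same genes added, in both settings that left out the libraries that stood apart, none of which belongs to this comparison. White adipocyte markers at 14dpr summed to 1539, 1156, 1496 and 2195 CPM in immature and 1232, 2109, 1601 and 1643 CPM in mature mice, and 9 of 12 and 10 of 12 were below baseline. Skeletal muscle markers summed to 67501, 73737, 77121 and 56779 CPM and 32684, 31508, 55885 and 65036 CPM at baseline and to 15964, 11889, 19695 and 19838 CPM and 14012, 26131, 23176 and 15134 CPM at 14dpr, with 15 of 15 and 12 of 15 down. Erythroid markers fell in 8 of 8 genes at each age and neutrophil markers in 8 of 9 in immature and 9 of 9 in mature mice, while 9 of 10 macrophage and 8 of 9 chondrocyte markers rose at each age. Erythroid markers, with Hbb-bs the most abundant, summed to 21953, 17784, 19258 and 13609.7 CPM and 19754, 17032, 23963 and 24152 CPM at baseline and to 3595, 6701, 2287 and 3219 CPM and 501, 3549, 1844 and 2005 CPM at 14dpr. The part of these cell types in the changes was not tested.

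Away from 2dpr no gene passed the test between the ages. At baseline edgeR called 0 of 10 genes between immature and mature mice (1 at an unadjusted p under 0.05, 0 by DESeq2; 0.585% of all genes differed), at 0dpr 0 (0 unadjusted, 0 by DESeq2; 0.726%), at 5dpr 0 (0 unadjusted, 0 by DESeq2; 0%) and at 14dpr 0 (1 unadjusted, 0 by DESeq2; 0.00943%). Thrsp differed by 0.73 ± 0.46 at baseline, 0.04 ± 0.45 at 0dpr, -0.08 ± 0.51 at 5dpr and -0.57 ± 0.48 at 14dpr (log2 of immature over mature ± SE; lowest adjusted p = 0.580, edgeR). Me1 was past the unadjusted threshold at baseline, with 74.8, 90.9, 158 and 51.7 CPM in immature and 31.0, 50.1, 57.1 and 82.5 CPM in mature mice, and Acaca at 14dpr, with 77.7, 58.9, 73.7 and 89.0 CPM and 93.5, 139, 177 and 73.5 CPM. Both overlapped between the ages (adjusted p = 0.275 and 1.00, edgeR). At 14dpr Acly had 185, 177, 182 and 172 CPM in immature and 213, 201, 319.7 and 211 CPM in mature mice and did not overlap, but its difference of -0.40 ± 0.24 did not pass (adjusted p = 1.00). At 14dpr each of the 10 genes had a lower mean in immature than in mature mice, and none passed. Acacb (31.2 against 33.6 CPM) and Scd2 (199 against 208 CPM) differed little. At 2dpr each gene had a higher mean in immature mice, in the contrast that chose Thrsp. No share of all genes is given beside these tallies, so nothing is read from them.

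**Figure D4:**
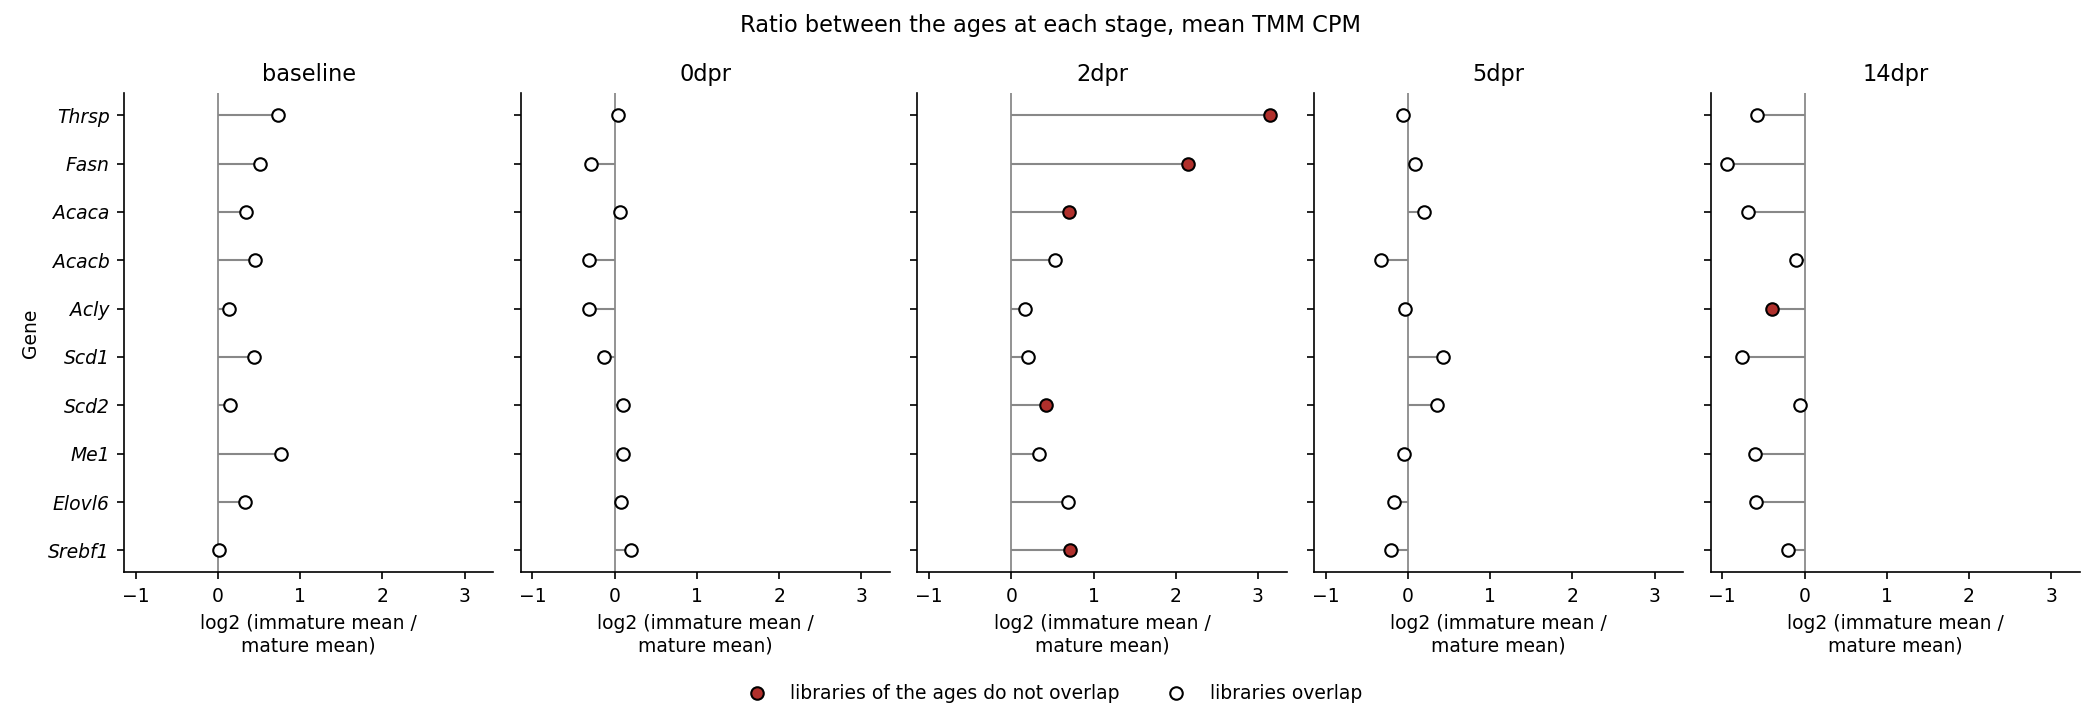
Log2 ratio of the immature to the mature group mean (TMM-scaled CPM) for the 10 genes at each stage. Filled points mark genes whose libraries did not overlap between the ages. At 2dpr Thrsp reached 3.14 and Fasn 2.15, and at the other stages the largest ratio in either direction was -0.94, for Fasn at 14dpr.

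Other genes of lipid metabolism were counted in lists, beside shares of all genes changed of 44.0% in immature and 47.6% in mature mice from 0dpr to 2dpr and of 10.6% and 22.5% from baseline to 0dpr. Of 12 genes found for carbon and NADPH supply, 7 fell and 3 rose from 0dpr to 2dpr in the immature group, against 8 and 4 in the mature group. Acss2, which makes acetyl-CoA from acetate, fell most at both ages, at -2.80 ± 0.30 and -3.52 ± 0.31 (log2 ± SE; adjusted p = 1.90e-09 and 1.42e-11, edgeR). All 10 genes of triglyceride assembly fell in immature and 9 of 10 in mature mice, with Dgat2, the enzyme of the last step, at -2.21 ± 0.35 and -2.93 ± 0.36. Fatty acid oxidation, the opposite process, fell as well, with 15 of 16 genes down and 1 up at each age and a median of -1.60 and -1.76. Among 18 regulators of lipogenesis, 8 fell and 2 rose at each age, and the 3 largest falls were those of Mlxipl (the sugar sensor ChREBP, -3.28 ± 0.39 and -2.74 ± 0.38), Prkaa2 (a catalytic subunit of AMPK, -2.82 ± 0.28 and -2.65 ± 0.28) and Thrb (a thyroid hormone receptor, -2.38 ± 0.19 and -2.79 ± 0.19). The other elongases and desaturases split, with 3 up and 4 down of 14 in immature mice and 4 up and 5 down in mature mice. Of 18 genes of cholesterol synthesis 7 fell and 0 rose in the immature group, against 3 and 7 in the mature group, and the difference between the ages was not tested. From baseline to 0dpr 15 of those 18 rose in immature and 6 in mature mice, and the interaction with age passed for 0 of 18 by edgeR. The immature count includes 0dpr replicate 1, the library with 6305 CPM of hepatocyte markers, and was not repeated without it.

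The genes whose log2 CPM ran most like that of Thrsp over the 39 libraries were Gpd1 (Pearson r = 0.96), Fasn (r = 0.95), Pnpla3, Gpt, Dgat2, Cdo1, Pcx, Acss2, Gstz1 and Ptger3 (r = 0.92), ranked over 16147 genes with a mean of at least 1 CPM. Libraries share their stage and age, so r is a description. Ranking by Spearman kept 7 of these 10, and ranking over the 10 group means kept 1, Gpd1. Among the genes of the pathway r with Thrsp was 0.95 for Fasn, 0.89 for Scd1 and Acaca, 0.87 for Me1 and Acacb, 0.86 for Elovl6, 0.77 for Srebf1, 0.57 for Acly and 0.09 for Scd2. Acly and Scd2, the genes with the smallest range, came last.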

How the data were processed

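Reads of 39 libraries were mapped to GRCm38 with STAR 2.5.2a by the authors, and the deposited counts are whole reads per gene, with the counting strand not stated. The signal the authors deposited is CPM scaled by TMM factors, and it matched values recomputed from the counts. Separate sequencing runs are not named per library, so they were not tested. The deposited filtered table (21204 genes) was fitted with edgeR 4.0.16 in R 4.3.3 (quasi-likelihood, 1 coefficient for each of the 10 groups, Benjamini-Hochberg over all genes, threshold 0.05), and the steps were tested on simulated data. DESeq2 1.42.0, RLE size factors, other filters, a replicate block and leaving out each library were run as alternatives. Pairing was checked from the replicate numbers in the sample titles: at 0dpr the same-numbered immature and mature libraries were alike in 4 of 4 pairs, with r from 0.109 to 0.207, and not so in the other comparisons. Gene lengths and overlaps came from GENCODE M21. Shares of all genes changed count rises and falls together. All members were named. From the other lists up to 3 genes called with the largest change in a comparison were eligible for naming. Members and lists were chosen with earlier results of these data known. A symbol of the carbon list, Pc, was not found, as the table uses Pcx.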

Additional observations from a re-analysis of the deposited data

Results flagged for a closer look

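A single library lay far from the rest of its group in 14 of 144 groups of 4 values, judged by its gap to the nearest library as a share of the group's range, and chance alone gives about 1 in 20 groups. Immature 2dpr replicate 4 was highest for Fasn at 939.7 CPM (others 400.5 to 485), Acaca at 202 CPM (124 to 136), Scd1 at 612 CPM (219.7 to 281) and Elovl6 at 51.3 CPM (23.4 to 26.5). Mature 2dpr replicate 4 was lowest for Acaca at 74.6 CPM (94.7 to 97.7) and highest for Acacb at 75.6 CPM (30.2 to 34.9). Acly was low at 159 CPM in mature baseline replicate 1 (229 to 243) and high at 319.7 CPM in mature 14dpr replicate 3 (201 to 213). Scd2 was low at 173 CPM in mature 14dpr replicate 4 (219 to 221). Immature 14dpr replicate 1 had 22381 genes with a count (others 22869 to 22901). White adipocyte markers summed to 1374 CPM in immature 5dpr replicate 4 and macrophage markers to 2776 CPM in immature baseline replicate 2. Hepatocyte markers summed to 6305 CPM in immature 0dpr replicate 1 and to 11.2 CPM in mature baseline replicate 1.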

How the results depend on the processing

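The 45 changes called between stages kept their direction in all 720 alternative fits and their call in 668, and 33 kept the call in every alternative. The count of genes called from baseline to 0dpr in immature mice was 6. It was 1 with the replicate block and 0 when edgeR was fitted on only the libraries compared, and ran from 2 to 6 when each library was left out. The cause was not tested. From 2dpr to 5dpr in immature mice the count of 0 became 1 (Acly) with only the libraries compared, and the cause was not tested. From baseline to 14dpr in mature mice the count of 5 ran from 3 to 7 when each library was left out. It was 7 with RLE size factors and by DESeq2.

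The log2 ratio of means for Thrsp, 2dpr, immature against mature, ran from 2.79 without immature 2dpr replicate 4 to 3.35 without immature 2dpr replicate 3 and was 3.14 with RLE size factors. The list of genes most like Thrsp shared 1 of 10 genes with that over the group means. RLE size factors moved the median of all genes by at most 0.09 (log2). Leaving out doubted libraries together was added after the data were seen. Groups of 3 or 4 libraries limit what differences between the ages could be detected.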
